A study of Homo sapiens with 3 samples.

Results

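The mRNAs of 9 interferon pathway genes were followed in an eCLIP experiment on the RNA helicase DDX6. They are the transcription factors STAT2, IRF1 and IRF9, the antiviral effector IFIT2, the ubiquitin ligase DTX3L and the ADP-ribosyltransferase PARP14. The others are the nuclear body protein SP100 and the double-stranded RNA enzymes ADAR and EIF2AK2. They were chosen by gene symbol, and all 9 had a row in every count table, out of 36817 gene identifiers. The cells were MOLM-13, a human acute myeloid leukaemia line grown in culture with serum, and the labels name no treatment. There were 2 DDX6 immunoprecipitation (IP) libraries, made with an antibody to DDX6 from UV cross-linked cells, and 1 input library made without the antibody. The tables held 4643494 counted reads in IP replicate 1, 1244213 in IP replicate 2 and 7807540 in the input. Of 11 myeloid marker genes, 10 had at least 10 exonic input reads, the exception being CD14. CD3D among 6 lymphoid markers and COL1A1 among 3 stromal markers also reached 10, while none of 5 erythroid and megakaryocytic or 3 epithelial markers did.

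Type I interferons act through a cell-surface receptor and the kinases JAK1 and TYK2, which phosphorylate STAT2. STAT2 and IRF9 are subunits of the complex ISGF3, which binds the interferon-stimulated response element (ISRE) in the promoters of antiviral genes. Interferon gamma acts mainly through the gamma-activated site (GAS), and IRF1 is a classic target of that arm. DDX6 binds mRNA, represses translation, promotes decapping and is needed for P-bodies, cytoplasmic granules of untranslated mRNA. It has been linked to restraint of interferon-stimulated genes in human cells.

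The promoters are shown because interferon acts on many of its target genes through these elements. No transcription was measured here. RefSeq promoter sequences (GRCh38.p14, 250 bases before to 50 after the transcript start) were found for 8 of the 9 genes, and IFIT2 had no entry. These 8 genes had 11 promoters in the search. The ISRE core, searched on both strands as GAAA, any 2 bases and GAAA, was found in promoters of EIF2AK2, DTX3L and PARP14. That was 3 of the 11 member promoters, beside 3.57% of all 35116 promoters. The GAS letters, TTC, any 3 bases and GAA, read the same on both strands. They were found in promoters of IRF1, IRF9 and PARP14, 3 of the 11 member promoters, and in 7.66% of all promoters. The 30-base windows below read 5′ to 3′ along the gene, with the matched letters in capitals. They lie at chr2:37156967-37156996 (minus strand), chr3:122564322-122564351 (plus), chr3:122680800-122680829 (plus) and chr5:132490878-132490907 (minus), in the order shown. The matches of EIF2AK2 and DTX3L each began 6 bases before the transcript start and ran 4 bases past it, that of PARP14 began 29 bases before and that of IRF1 124 bases before. In PARP14 the GAS match, which began 40 bases before the start, did not overlap the ISRE match. A match is a run of letters and not a shown binding site.
EIF2AK2 ISRE: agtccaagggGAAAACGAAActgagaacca
DTX3L ISRE: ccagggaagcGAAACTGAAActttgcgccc
PARP14 ISRE: tccaggaaacGAAAGCGAAAgagtcaaagt
IRF1 GAS: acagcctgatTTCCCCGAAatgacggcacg

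Summed over exons, the mRNAs of DTX3L and IFIT2 were higher in the DDX6 IP, both about 2-fold, and the other 7 were not called. Reads in coding sequence, 3'UTR, 5'UTR and non-coding exon were added up per gene and tested with edgeR's quasi-likelihood test after TMM scaling, which sets the typical gene to no change. Calls needed an adjusted p (Benjamini-Hochberg, over all 10392 genes tested) under 0.05. Of those genes 16.7% were called higher and 11.4% lower, so 2 of 9 is near the background and is no result about the group. The median log2 fold was 0.39 over the 9 members and 0.00 over all genes. The p-values rest on the spread between the IP libraries, estimated mostly over all genes together and little from each gene's own replicates. Nothing says that the IP libraries came from separate cultures, and the single input was assumed to vary as they do.

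DTX3L encodes a ubiquitin ligase that works with the ADP-ribosyltransferase PARP9 in DNA repair and interferon responses. Its exonic level was 122 and 121 CPM (counts per 1e6 exonic reads, TMM-scaled) in the IP libraries and 63.3 CPM in the input, from 392 and 96 reads in the IP libraries and 140 in the input. Both IP libraries lay above the input, and by almost the same margin. The log2 fold was 0.94 (SE 0.27, edgeR adjusted p = 0.00545), or 1.92-fold. The call held in 6 of the 7 tested settings and not with DESeq2 (adjusted p = 0.149). In RefSeq the spans of DTX3L and PARP9 overlap on opposite strands, and the strand treatment of the counting is not given. PARP9 itself had 61 and 13 exonic reads in the IP libraries and 25 in the input, with a log2 fold of 0.68 that was not called (edgeR adjusted p = 0.318).

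IFIT2, a protein that binds viral RNA and limits translation, had few reads. Its level was 29.4 and 37.9 CPM in the IP libraries and 15.8 CPM in the input, from 94 and 30 IP reads and 35 input reads. The IP libraries differed from each other by less than either did from the input. The log2 fold was 1.03 (SE 0.41, edgeR adjusted p = 0.0462), or 2.05-fold. The call sat at the threshold: it held in 3 of the 7 tested settings, and the adjusted p was 0.0911 when at least 30 reads were asked for, 0.151 when just coding and 3'UTR reads were summed and 0.389 with DESeq2. The RefSeq span of LIPA overlaps that of IFIT2.

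Of the remaining members, SP100, IRF1 and PARP14 lay above the input in both IP libraries without passing the test. SP100, a component of PML nuclear bodies, had 95.9 and 98.4 CPM in the IP libraries and 61.1 CPM in the input (log2 fold 0.67, SE 0.28, edgeR adjusted p = 0.0649). IRF1 had 57.2 and 58.0 CPM in the IP libraries and 39.8 CPM in the input (log2 fold 0.53, SE 0.32, edgeR adjusted p = 0.218). PARP14, a large ADP-ribosyltransferase, had 76.5 and 69.4 CPM in the IP libraries and 56.1 CPM in the input (log2 fold 0.39, SE 0.29, edgeR adjusted p = 0.337). For these genes the input lay outside the range of the IP libraries, but none was called after adjustment. Before adjustment the edgeR p was 0.0197 for SP100, 0.101 for IRF1 and 0.186 for PARP14.

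ADAR, which converts adenosine to inosine in double-stranded RNA, had 226 and 251 CPM in the IP libraries and 229 CPM in the input (log2 fold 0.05, SE 0.24, edgeR adjusted p = 0.907). Its input value lay between the IP libraries, which was so for no other member. EIF2AK2, the kinase PKR that halts translation on binding double-stranded RNA, had 79.3 and 58.0 CPM in the IP libraries and 107 CPM in the input. Its log2 fold was -0.60 (SE 0.27, edgeR adjusted p = 0.0870), and -0.70 when just coding and 3'UTR reads were summed, where it was called (edgeR adjusted p = 0.0370). The RefSeq span of GPATCH11 overlaps that of EIF2AK2 on the opposite strand. STAT2 had 37.8 and 40.4 CPM in the IP libraries and 48.4 CPM in the input (log2 fold -0.32, SE 0.33, edgeR adjusted p = 0.499). IRF9 had 12.5 and 10.1 CPM in the IP libraries and 19.9 CPM in the input, from 40 and 8 IP reads and 44 input reads (log2 fold -0.76, SE 0.47, edgeR adjusted p = 0.232). Over all exonic reads no member was called lower by edgeR or by DESeq2 (which gave IRF9 no adjusted p), and EIF2AK2 was the 1 member lower at an unadjusted p under 0.05 in edgeR, with none in DESeq2. The ISGF3 partners STAT2 and IRF9 therefore had values below the typical gene and IRF1 above it, none of them called.

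**Figure D1:**
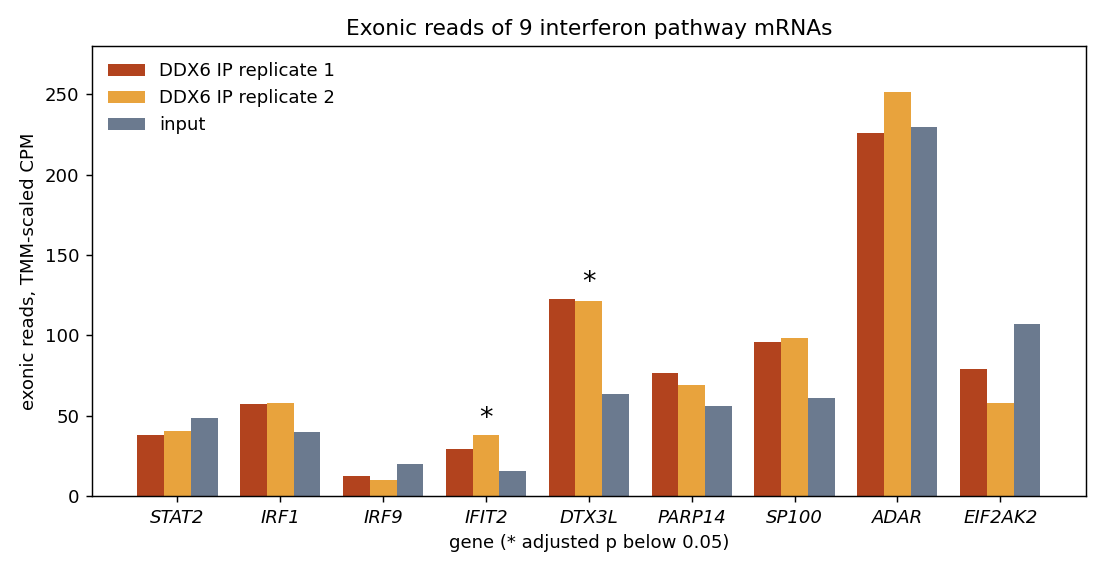
Exonic reads of each mRNA as TMM-scaled CPM, 1 bar per library, for DDX6 IP replicate 1, DDX6 IP replicate 2 and the input. Asterisks mark the called genes DTX3L and IFIT2, and the ADAR input bar (229) falls between its IP bars (226 and 251). CPM values are not corrected for transcript length, so heights cannot be compared between genes.

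Intronic reads made up a smaller share of the members' reads in the IP than in the input and coding reads a larger one, as for genes at large. Exonic reads made up 81.0% of the 2912 reads of the 9 genes in IP replicate 1 and 81.0% of 728 in IP replicate 2, against 41.8% of 3387 in the input (exact Clopper-Pearson 95% intervals 79.5% to 82.4%, 78.0% to 83.8% and 40.2% to 43.5%, counting error only). Over all genes exonic shares of gene reads were 70.5% and 65.0% in the IP libraries and 31.5% in the input. Coding sequence held 45.1% and 47.5% of the members' reads in the IP libraries and 17.2% in the input, and the 3'UTR 32.5% and 30.2% in the IP libraries and 22.8% in the input. Over all genes the coding shares were 36.1% and 33.3% in the IP libraries and 10.3% in the input. The 3'UTR shares of all genes were 23.5% and 19.2% in the IP libraries and 10.6% in the input. All genes include non-coding ones, so their shares are not like for like with those of the members. The coding share of each member was higher in both IP libraries than in the input.

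SP100 had the most intronic reads. Introns held 41.4% of its reads in IP replicate 1 and 42.6% in IP replicate 2, against 86.4% in the input, where 658 of 861 intronic reads lay in distal intron. DTX3L was at the other end, with 3.21% and 5.88% intronic reads in the IP libraries and 10.3% in the input. With intronic reads counted too, SP100 was at -0.25 log2 and DTX3L at 2.04 log2. That fit was scaled anew over exonic and intronic reads together, so its folds are on another scale than those over exons alone. The DTX3L reads themselves were then 405 and 102 in the IP libraries and 156 in the input.

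Tested region by region, coding sequence was higher in the IP for 7 of the 9 members, while 51.2% of 8169 coding regions were called higher and 0.208% lower overall. This fit scales exonic and intronic rows together, so its folds are on another scale than those above. The median log2 fold of coding sequence was 1.16 over the members and 1.02 over all genes, close to each other. DTX3L coding sequence had 206 and 47 reads in the IP libraries and 41 in the input, a log2 fold of 2.34 (SE 0.41, edgeR adjusted p = 8.19e-08). IFIT2 coding sequence had 54 and 16 reads in the IP libraries and 12 in the input, a log2 fold of 2.32 (SE 0.57, edgeR adjusted p = 0.000158). On this scale coding sequence of both genes was about 5-fold higher in the IP, where the median coding region was itself at 1.02 log2.

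IRF1 came next, with 86 and 19 coding reads in the IP libraries, 26 in the input and a log2 fold of 1.73 (SE 0.48, edgeR adjusted p = 0.000817). SP100 was at 1.39, STAT2 at 1.16, ADAR at 1.13 and PARP14 at 1.08 log2 (edgeR adjusted p between 0.000324 and 0.0395). STAT2 rested on 60 and 10 coding reads in the IP libraries and 25 in the input, and its replicates lay at 1.26 and 0.66 log2. EIF2AK2 (0.48 log2, edgeR adjusted p = 0.340) and IRF9 (-0.02 log2, edgeR adjusted p = 0.985) were not called. IRF9 had 25 and 5 coding reads in the IP libraries and 25 in the input, and its replicates lay on either side of 0 (0.08 and -0.25 log2). With scaling over exonic rows alone, DTX3L and IFIT2 were the 2 members whose coding sequence was still called.

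The 3'UTR was higher in the IP for DTX3L alone among the 8 members tested, while 23.9% of 7194 3'UTRs were called higher and 6.83% lower overall. DTX3L had 186 and 49 3'UTR reads in the IP libraries and 99 in the input, a log2 fold of 1.01 (SE 0.37, edgeR adjusted p = 0.0124). The values of PARP14 (0.81), IRF1 (0.76), SP100 (0.75), IFIT2 (0.44) and ADAR (0.16) were above 0 and those of EIF2AK2 (-0.29) and STAT2 (-0.34) below it, all uncalled. The members' median was 0.60 log2 and that of all 3'UTRs 0.28, and with scaling over exonic rows alone the members' median was -0.15. The sign of STAT2 rested on IP replicate 1 (-0.57, against 0.13 in IP replicate 2), and SP100 was at 0.23 without IP replicate 1. The DTX3L call was lost with DESeq2 (adjusted p = 0.122), with no read minimum (edgeR adjusted p = 0.213) and with scaling over exonic rows (edgeR adjusted p = 0.567), where EIF2AK2 was called lower (-1.03 log2, edgeR adjusted p = 0.00636). With a minimum of 30 reads, IRF1 (0.96 log2) and PARP14 (1.01 log2) were called higher too. The IRF9 3'UTR, with 9 and 2 reads in the IP libraries and 15 in the input, was under the read minimum.

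Introns were lower in the IP for 7 of the 8 members tested, while 83.0% of 9153 introns were called lower and 2.57% higher overall. The called log2 folds ran between -2.43 in EIF2AK2 and -1.39 in IRF9. STAT2 introns were at -1.47, with replicates at -1.10 (57 reads) and -2.54 (5 reads). The exception was DTX3L, whose 13 and 6 intronic reads in the IP libraries and 16 in the input gave a log2 fold of 0.09 (SE 0.73, edgeR adjusted p = 0.926). The IFIT2 intron, with 8 and 2 reads in the IP libraries and 13 in the input, was under the read minimum. STAT2 was the 1 member with a tested non-coding exon (31 and 7 reads in the IP libraries and 40 in the input, -0.33 log2, not called), where 18.4% of 985 such regions were called higher and 21.7% lower.

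**Figure D2:**
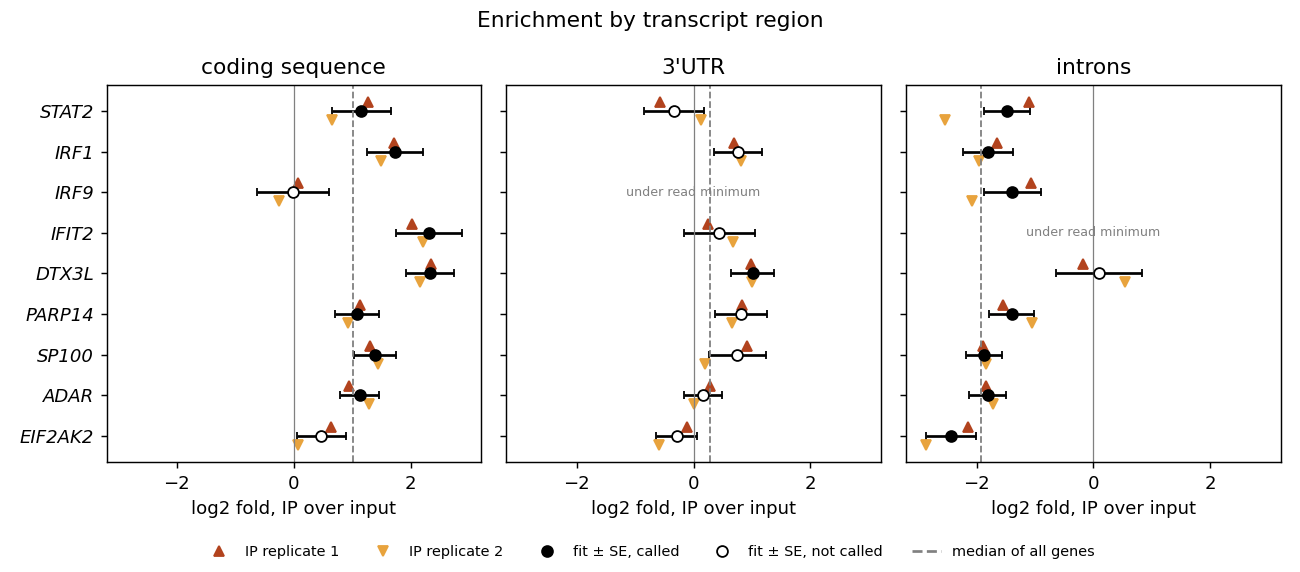
Log2 fold of IP over input for coding sequence, 3'UTR and introns of each mRNA, with triangles for each IP replicate and circles for the fit with its standard error, filled where called. The dashed line is the median of all genes (1.02, 0.28 and -1.93). Coding values of DTX3L and IFIT2 lie farthest to the right, and the intron value of DTX3L (0.09) stands off from the other members.

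Reads in 5'UTRs were under the read minimum in every member, while 33.2% of the 2025 5'UTRs tested were called higher and 4.49% lower. IFIT2 had 15 and 5 5'UTR reads in the IP libraries and 1 in the input, or 16.9 times the input level (95% interval for counting error 2.71 to 701). EIF2AK2 had 16 and 3 in the IP libraries and 4 in the input, a ratio of 4.02 (1.34 to 16.2). The intervals of STAT2 (1.05 to 334) and SP100 (1.02 to 43.2) began just above 1, and those of IRF1, IRF9 and ADAR included 1. With no minimum beyond 1 read, IFIT2 was called (3.65 log2, edgeR adjusted p = 0.0192), as were 6.19% of all 10643 5'UTRs then tested. EIF2AK2 (edgeR adjusted p = 0.276), STAT2 (0.294) and SP100 (0.439) were not called there. No 5'UTR read was assigned to DTX3L or PARP14 in any library.

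Within the same mRNA, the gain of coding sequence over the 3'UTR in the IP passed its test in DTX3L and ADAR, 2 of the 8 members tested. This comparison does not depend on scaling between libraries. It was made as a region by IP interaction with the library as a block (edgeR's quasi-likelihood test, adjusted over 6552 genes), and 29.8% of all genes were called in this direction and 0.717% in the other. In DTX3L the difference was 1.34 log2 (SE 0.42, edgeR adjusted p = 0.00886), with 1.41 in IP replicate 1 and 1.20 in IP replicate 2. Coding reads were 52.6% and 49.0% of its exonic reads in the IP libraries and 29.3% in the input. In ADAR the difference was 0.93 log2 (SE 0.31, edgeR adjusted p = 0.0153), with 0.68 and 1.30 in the replicates, and coding reads were 53.5% and 64.3% of its exonic reads in the IP libraries and 41.8% in the input. DESeq2 called neither.

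The largest difference, that of IFIT2, was 1.88 log2 (SE 0.80, edgeR adjusted p = 0.0579) and missed the threshold, as did STAT2 (1.54, edgeR adjusted p = 0.0624). The STAT2 value rested mostly on IP replicate 1, with 1.95 in that library and 0.57 in IP replicate 2, and SP100 lay at 0.36 in IP replicate 1 and 1.21 in IP replicate 2. IRF1 (0.99), EIF2AK2 (0.75), SP100 (0.60) and PARP14 (0.28) were not called either, and IRF9 had too few reads. All 8 members tested had a value above 0, as did 86.8% of all genes, and the medians were 0.96 and 0.82 log2. The mRNAs thus ranged between IFIT2, where 25 of 94 and 9 of 30 exonic reads of the IP libraries and 22 of 35 of the input lay in the 3'UTR, and PARP14, where the 3'UTR shares were 30.2% and 30.9% in the IP libraries and 34.7% in the input.

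In the peak lists the authors deposited for each IP library, there were peaks in all 9 mRNAs in IP replicate 1 and in 8 in IP replicate 2, with none in IRF9. The fold and -log10 p of a peak are the authors' values against the input, and coordinates are hg19. At a log2 fold and a -log10 p of at least 3, a peak was called for 19 of 140 member peaks in IP replicate 1, beside 11.5% of all peaks, and for 6 of 62 in IP replicate 2, beside 12.9%. All 25 were assigned to coding sequence, the class of 71.1% of all called peaks in IP replicate 1 and 67.0% in IP replicate 2. They lay in IRF1, IFIT2, DTX3L, PARP14, SP100 and ADAR, while STAT2, IRF9 and EIF2AK2 had no called peak.

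DTX3L held 7 of the called peaks in IP replicate 1 and 2 in IP replicate 2, on chromosome 3 between 122283421 and 122289505. The peak with the largest fold of any member was the first of these, 41 bases at 122283421 to 122283461 (log2 fold 5.01, -log10 p 6.60). None of the 7 overlapped a called peak of IP replicate 2, whose pair at 122288121 to 122288197 (log2 fold 4.96) and 122289425 to 122289505 (log2 fold 3.96) overlapped peaks of IP replicate 1 that were below the threshold. Over all genes, 22.1% of called peaks in IP replicate 1 and 33.6% in IP replicate 2 overlapped a called peak of the other list, so most called peaks at large did not coincide either.

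Called member peaks of the IP libraries overlapped at 2 places, which is 10.5% of the 19 in IP replicate 1 and 33.3% of the 6 in IP replicate 2. In IFIT2, on chromosome 10, the peak at 91065807 to 91065874 in IP replicate 1 (log2 fold 3.47) and the one at 91065814 to 91065893 in IP replicate 2 (log2 fold 3.86) shared 61 bases of coding sequence. In ADAR, on chromosome 1, a peak of 8 bases at 154558657 to 154558664 in IP replicate 1 (log2 fold 3.01) lay inside a peak of 18 bases in IP replicate 2 (log2 fold 3.23). IFIT2 had a further called peak in IP replicate 1 at 91061801 to 91061887 (log2 fold 4.26, -log10 p 7.11), of which 80 of 87 bases were 5'UTR and 6 coding, and it overlapped a peak below the threshold in IP replicate 2. Its remaining called peak, at 91065718 to 91065749, had a log2 fold of 4.82.

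IRF1 had 3 called peaks in IP replicate 1 on chromosome 5, the one with the largest fold at 131819726 to 131819762 (log2 fold 4.82), and none in IP replicate 2. SP100, with the most peaks of any kind (36 in IP replicate 1 and 20 in IP replicate 2), had 3 and 1 called. PARP14 had 1, at 122436999 to 122437089 on chromosome 3. The strongest 3'UTR peak, in ADAR in IP replicate 1, had a -log10 p of 7.79 but a log2 fold of 1.98. The best fold of EIF2AK2, 3.01 log2 in its 3'UTR, had a -log10 p of 2.48. No member peak of either library overlapped the 1587 peaks of the authors' deposited list of reproducible peaks, which 1.39% of all peaks and 11.3% of all called peaks did in IP replicate 1, and 2.20% and 14.8% in IP replicate 2.

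**Figure D3:**
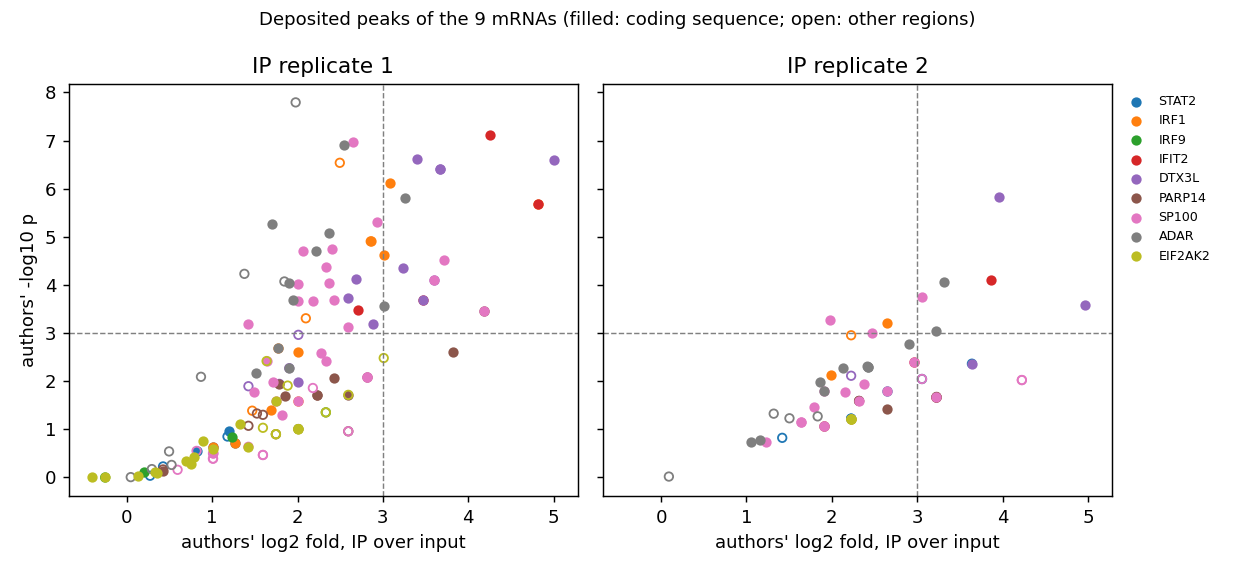
Each point is a deposited peak of a member mRNA, placed by the authors' log2 fold of IP over input and -log10 p, in IP replicate 1 (140 peaks) and IP replicate 2 (62 peaks). Dashed lines mark the threshold of 3 on both axes, and all 19 and 6 points past both lines are filled, the mark of coding sequence.

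Other genes of the pathway were read in the same exonic fit. Of 131 further genes on 10 lists, 77 had enough reads, and 18 of these were called higher and 1 lower, with a median log2 fold of 0.32. As 16.7% of all genes were called higher, that share is given as a count and not as a property of the pathway. The interferon ligands were without tested members: a row was found for IFNB1 alone of 10.

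Lists differed in size, with 5 of 25 other interferon-stimulated genes and 2 of 4 other double-stranded RNA enzymes called higher. Of 12 negative regulators tested, 5 were called higher. They included SOCS1 (2.25 log2, edgeR adjusted p = 5.17e-06), CISH (1.99, edgeR adjusted p = 6.00e-08) and SOCS3 (1.90, edgeR adjusted p = 2.39e-05), which encode feedback inhibitors of JAK signalling. The SOCS1 reads were 160 and 60 in the IP libraries and 28 in the input. Each of these log2 folds was larger than those of DTX3L and IFIT2.

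Among receptors and kinases 2 of 9 were called higher, both subunits of the interferon gamma receptor: IFNGR2 (1.73 log2, edgeR adjusted p = 1.09e-06) and IFNGR1 (0.96, edgeR adjusted p = 0.00365). JAK2 was not (0.52, edgeR adjusted p = 0.260). Among STAT and IRF genes 1 of 7 was called, IRF2, which encodes a counterpart of IRF1 that competes for the same sites (1.93 log2, 131 and 48 reads in the IP libraries and 28 in the input, edgeR adjusted p = 0.000104). IRF3 was at -0.77 log2 and not called (edgeR adjusted p = 0.0804).

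Sensors and adaptors had 1 called of 8, the DNA sensor gene CGAS (1.30 log2, edgeR adjusted p = 7.88e-05), while TBK1 (0.76) and IFIH1 (1.18) were not called. Among other double-stranded RNA enzymes 2 of 4 were called higher, among them DICER1 (0.80 log2, edgeR adjusted p = 0.0118), and ADARB1 (-0.41) was not called. Genes of PML bodies had 2 of 5, ATRX (0.96) and DAXX (0.93), while PML (0.65, edgeR adjusted p = 0.132) was not called. The replicates of ATRX lay at 1.22 and 0.51 log2.

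No call was made on the IFIT and IFITM list, where IFIT3 (0.33) and IFITM2 (-0.11) were the 2 tested, or among 5 PARP genes, with PARP9 at 0.68, ZC3HAV1 at -0.19 and PARP15 at -1.50 log2 (edgeR adjusted p = 0.0814). Of 25 other interferon-stimulated genes 5 were called higher, among them the antiviral factor genes SAMD9L (2.14 log2), SAMD9 (1.53) and SLFN11 (1.19). The 1 lower gene, LY6E (-1.10 log2, edgeR adjusted p = 0.00473), was named after its value was seen. Called peaks were more frequent in some of these genes than in any member: CGAS had 16, PIAS1 12 and IRF2BP2 11 in IP replicate 1, where DTX3L led the members with 7. In IP replicate 2, where no member had over 2, DICER1 had 6, IFNGR2, PIAS1, IRF2BP2 and CISH 5 each, SLFN11 and IRF2 4 each and XAF1 3.

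**Figure D4:**
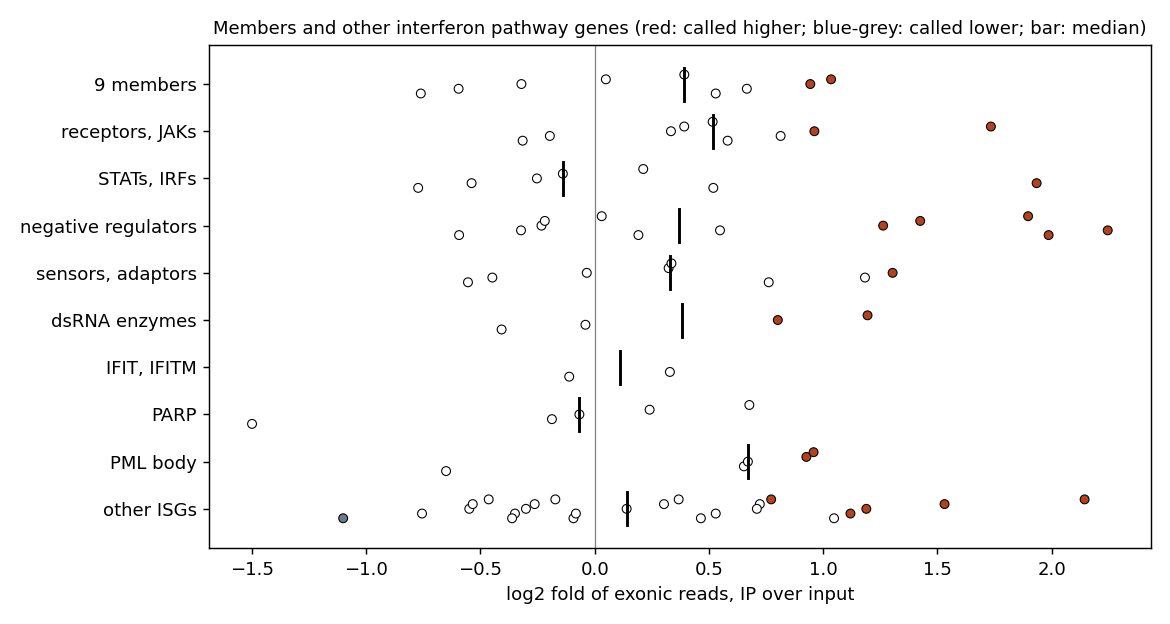
Log2 fold of exonic reads, IP over input, for the 9 members and for the other tested genes of 9 interferon pathway lists, 1 point per gene. Filled points were called, and vertical bars are list medians, which run between -0.14 for STAT and IRF genes and 0.67 for PML body genes, with 0.39 for the members.

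Just ADAR and PARP14 had at least 10 reads in coding sequence, 3'UTR and introns in all 3 libraries. The genes closest to the median of their 6 log2 folds (3 regions in 2 IP libraries) were ALDH9A1, AP3D1 and MARF1, at Euclidean distances of 0.310, 0.319 and 0.332, beside a median of 1.63 over 3168 genes.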

How the data were processed

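DDX6 eCLIP of MOLM-13 cells gave 2 IP libraries and 1 input library. The submitters' processing notes list hg19, SAMtools, STAR, cutadapt and UMI-tools. The sources used here name no versions, peak caller, counter, annotation or strand treatment. The deposited tables hold raw counts for each gene by region. Lines of totals and of intergenic reads (4.05% and 3.78% of the IP libraries and 2.63% of the input) were left out of tests and library sizes. The deposited peak lists hold a -log10 p and a log2 fold against the input, as the values show.

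Genes with at least 10 reads in 2 libraries were tested with edgeR 4.0.16 (glmQLFit, glmQLFTest, TMM), with DESeq2 1.42.0 as an alternative, in R 4.3.3. The spread had 1 residual degree of freedom, and the common dispersion was 0.0272 for exons, 0.0356 for regions and 0.0139 for coding sequence against 3'UTR. The prior degrees of freedom, the weight given to the spread over all genes, were 75.8 for exons and infinite in the other fits. A call in those fits therefore does not rest on how closely the gene's own replicates lie. A prior count of 2 entered the log2 folds of single replicates. Scripts were tested on simulated data. Symbols matched 28576 of 29754 Ensembl identifiers. A 5'UTR ratio pools the IP libraries, scaled as in the region fit, with an exact 95% interval for counting error.

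All members were named, and of other pathway genes up to 3 per list with the smallest p those with more called peaks than any member, and the 3 genes nearest to the members' median profile. The members, lists and tests were chosen with earlier results of these data known. Some genes that this rule names are not reported here.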

Additional observations from a re-analysis of the deposited data

How the results depend on the processing

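Some of these genes had few reads: member exonic reads ran between 8 and 723 per IP library. No paired analysis was possible because there was 1 input library for the 2 IP libraries. Leaving out either IP library leaves no residual degrees of freedom, so it gives values with no test: the members' median exonic log2 fold was then 0.24 to 0.44, that of other pathway genes 0.23 to 0.32, those of coding sequence 1.29 to 1.34, 3'UTR 0.46 to 0.49 and introns -1.85 to -1.61, and the coding against 3'UTR difference 0.93 to 0.97.

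Scaling to library size alone, which moves the median gene to 1.24 log2, gave 7 members and 63 other pathway genes higher and 0 other pathway genes lower, 5 member 3'UTRs higher and 4 member introns lower, and put STAT2 at 0.92 log2 (edgeR adjusted p = 0.0147) in place of -0.32. DESeq2 gave 0 members higher (1 at an unadjusted p under 0.05), 10 other pathway genes higher and 0 lower, 4 coding regions higher, 0 3'UTRs (0 unadjusted), 3 introns lower and 0 coding against 3'UTR differences (0 unadjusted). With no filter beyond 1 read 1 member, 4 coding regions and 0 3'UTRs (0 unadjusted) were higher by edgeR, and with 30 reads 1 member, 4 of 5 coding regions and 3 of 6 3'UTRs. With intronic reads included 4 members were higher and 5 of 87 other pathway genes lower, beside 18.6% of all genes lower. With coding and 3'UTR reads only 1 member was higher and 1 lower, beside 11.3% of all genes lower. TMM over exonic rows gave 2 coding regions higher, 0 3'UTRs higher (0 unadjusted) and 1 lower. The cause of these changes was not tested beyond the settings themselves. Among all genes, exonic calls higher were 67.3% of genes with library size, 6.53% with DESeq2, 4.91% with no filter, 13.8% with 30 reads, 19.6% with introns and 17.1% with coding and 3'UTR reads. Coding regions higher were 26.9% with DESeq2, 20.0% with no filter, 68.8% with 30 reads and 20.7% with TMM over exonic rows, and 3'UTRs higher 46.2% with library size, 10.5% with DESeq2, 7.83% with no filter, 35.7% with 30 reads and 7.80% with TMM over exonic rows, where 25.5% were lower. Introns lower were 67.7% with library size and 58.9% with DESeq2, and coding against 3'UTR calls 2.88% with DESeq2.

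Called member peaks were 48 in IP replicate 1 and 9 in IP replicate 2 at a log2 fold of at least 1. At a -log10 p of at least 5 they were 9 in IP replicate 1 and 1 in IP replicate 2. Peaks called in both lists were 7 and 0 under these settings and 2 when at least 0.5 of the shorter peak had to overlap. The shares of all peaks under these settings were not computed, so these counts cannot be set against peaks at large. Of the members' exonic reads alone, coding sequence held 55.7% and 58.6% in the IP libraries and 41.0% in the input, and the 3'UTR 40.1% and 37.3% in the IP libraries and 54.6% in the input. Over all genes coding sequence held 51.3% and 51.2% of exonic reads in the IP libraries and 32.7% in the input. The 3'UTR of all genes held 33.3% and 29.5% in the IP libraries and 33.5% in the input. Exonic reads of all genes include those of non-coding genes, so these shares are not like for like with the members' shares. Coding and 3'UTR reads of all genes were 1609949 and 1046455 in IP replicate 1 and 398970 and 230030 in IP replicate 2. In the input they were 783273 and 803714, so coding reads gained on 3'UTR reads among all genes too.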

Other observations

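In introns, the IP reads of IRF9 lay mostly at the 5' splice site. It held 16 of 26 intronic reads in IP replicate 1 and 2 of 3 in IP replicate 2, against 21 of 61 in the input. For the 9 members together it held 93 of 553 and 31 of 138 in the IP libraries, against 178 of 1970 in the input. The share at the 5' splice site was thus larger in the IP for the members together too. No such share was computed over all genes, so this is not shown to be particular to IRF9. The 3' splice site of IRF9 held 2 and 1 reads in the IP libraries and 20 in the input. STAT2 had 20 and 0 reads at the 5' splice site in the IP libraries and 29 in the input, and 22 and 2 at the 3' splice site in the IP libraries and 51 in the input. These counts were picked after they were seen and were not tested.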
